A study of Homo sapiens with 18 samples.

Results

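Genes of the megakaryocyte and platelet lineage were followed in K562 cells: ITGA2B, ITGB3, GP1BB, GP9, PF4, FLI1, RUNX1, THBS1 and VWF. They were taken by symbol, 9 of the 55766 rows of the RNA count table, by a rule that uses no measured value. K562 is an established human leukaemia line of erythroid and megakaryocytic character. All cells carried a B2M:tdTomato transgene, which joins B2M, the gene of the MHC class I light chain, to a red fluorescent protein. Cells of 1 group were untreated, and cells of the other groups had been silenced at the B2M promoter with either TALE or dCas9 proteins, both programmable DNA-binding domains. Per the labels, the treated cells received 3 plasmids for 3 different repressors, with 1 ug of the plasmid for the D3A-based one, and 250 ng of a guide RNA plasmid in the dCas9 case. RNA-seq and MeDIP-seq (sequencing of DNA captured by an antibody against 5-methylcytosine) were each made on 3 libraries per group. The labels do not state the time after treatment, whether a group was 1 clone or many cells, or whether replicates were separate cultures, so p-values measure only the spread between these libraries.

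Megakaryocytes are the bone marrow cells that shed platelets, and they share a precursor with red cells. ITGA2B and ITGB3 pair into the platelet fibrinogen receptor, and GP1BB and GP9 belong to the complex that binds von Willebrand factor, the product of VWF. PF4 and THBS1 encode proteins stored in platelet alpha granules. RUNX1 and the ETS-family protein FLI1 are transcription factors that drive megakaryocyte genes, and FLI1 is known to oppose the erythroid programme.

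Total RNA counts ran from 8460076 to 12050554 per library. The targeted gene matched the labels in every library: B2M had 48 to 79 counts in untreated, 3 to 7 in TALE and 2 to 3 in dCas9 libraries. The B2M_tomato entry had 3115 to 4109, 128 to 196 and 140 to 205 counts in the same order. The untreated 3 library stood apart, with a count in 33110 genes against 21714 to 24963 in the other 8, and its values are set out below wherever a listed gene had few counts. The erythroid markers fitted the label of the line, since 11 of 11 passed the filter on low counts, with a summed level of 6766 to 10606 CPM (counts relative to library size, scaled by TMM). The endothelial markers, which matter here because endothelium makes VWF and THBS1, had 4 of 5 symbols in the table and 0 of them passed. Their summed level was 0.124 to 1.94 CPM in untreated, 0.385 to 0.588 in TALE and 0.0927 to 0.595 in dCas9 libraries. Fibroblast markers passed in 2 of 5 cases (COL1A1 and COL1A2), with sums of 5.31 to 11.1, 7.32 to 10.8 and 6.67 to 7.66 CPM. Lymphoid and mature myeloid markers passed in 2 of 8 cases (CD3D and LYZ), with sums of 44.9 to 49.4, 30.2 to 53.1 and 44.1 to 54.9 CPM. None of these markers in the table was at 0 in all libraries, and their part in the values below was not tested.

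The stretches of DNA below show a MeDIP region near a start, a CpG-rich promoter without a region and a promoter of a gene with no counts. Each is written 5′ to 3′ on the gene's own strand. The first is the MeDIP region upstream of THBS1 (chr15:39871995-39872254, GRCh37, + strand). Capitals mark CpG, the dinucleotide in which cytosine is methylated, at 11 sites.
THBS1 upstream: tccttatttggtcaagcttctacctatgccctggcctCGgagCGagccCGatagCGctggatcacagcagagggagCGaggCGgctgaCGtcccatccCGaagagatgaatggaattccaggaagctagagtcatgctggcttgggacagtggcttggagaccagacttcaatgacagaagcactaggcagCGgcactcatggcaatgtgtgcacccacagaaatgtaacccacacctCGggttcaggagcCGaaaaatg
The next is the promoter of RUNX1, the most abundant listed RNA, as the 250 bases before the RefSeq start (chr21:34888700-34888949, GRCh38.p14, - strand). It holds 32 CpG sites, in capitals, and matched GRCh37 exactly at chr21:36260997-36261246. No MeDIP region lay within 2000 bases of this start.
RUNX1 promoter: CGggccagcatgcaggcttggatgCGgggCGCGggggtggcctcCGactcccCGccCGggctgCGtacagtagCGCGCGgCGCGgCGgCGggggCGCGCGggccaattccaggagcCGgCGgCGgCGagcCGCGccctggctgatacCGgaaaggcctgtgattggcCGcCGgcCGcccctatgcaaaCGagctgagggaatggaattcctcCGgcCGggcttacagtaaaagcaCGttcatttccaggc
The last is the promoter of GP9, whose RNA was not seen, from the same source (chr3:129060529-129060778, GRCh38.p14, + strand). Here capitals mark 6-letter matches to the ETS letters AGGAAG or CGGAAG and the RUNX letters TGTGGT or TGCGGT, searched on both strands.
GP9 promoter: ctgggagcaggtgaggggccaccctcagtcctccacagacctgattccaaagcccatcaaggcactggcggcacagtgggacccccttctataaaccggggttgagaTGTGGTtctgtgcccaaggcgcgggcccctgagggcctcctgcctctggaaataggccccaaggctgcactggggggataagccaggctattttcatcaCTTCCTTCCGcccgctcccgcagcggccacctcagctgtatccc
RefSeq promoters were at hand for 5 of the 9 genes. ETS letters, written 5′ to 3′ on the strand that holds them, matched at 2 places in GP9 (AGGAAG and CGGAAG on the other strand, overlapping by 2 letters), 1 in GP1BB, 1 in THBS1 and none in ITGA2B and RUNX1. RUNX letters matched once each in GP9 and GP1BB, and the GATA letters AGATAA or TGATAA matched in 0 of the 5. Of 35116 promoters of the same length, 40.8% held ETS, 16.3% RUNX and 14.6% GATA letters, so such matches are common and are only a description.

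The listed genes split into 1 abundant transcript, 3 low ones and 5 at or near the floor. Per kilobase of the MANE Select transcript (the standard transcript agreed by 2 annotation groups), the mean level over the 9 libraries was 30.8 CPM per kb for RUNX1 and 1.99 for ITGA2B. It was 0.293 CPM per kb for ITGB3, 0.201 for THBS1, 0.161 for PF4, 0.0852 for VWF and 0.0252 for FLI1, and GP1BB and GP9 had no count. Every RUNX1 value lay above the ITGA2B range of 1.27 to 2.88, and every ITGA2B value above the ITGB3 range of 0.148 to 0.437. All other neighbours in this order overlapped from library to library, so their order is not fixed by these data. RUNX1 exceeded 92.9% of the 13786 genes that passed the filter in summed abundance not corrected for length, whereas ITGA2B exceeded 31.1%, ITGB3 11.8% and THBS1 10.2%. A bulk library cannot tell fewer cells that make a transcript from less of it per cell.

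**Figure D1:**
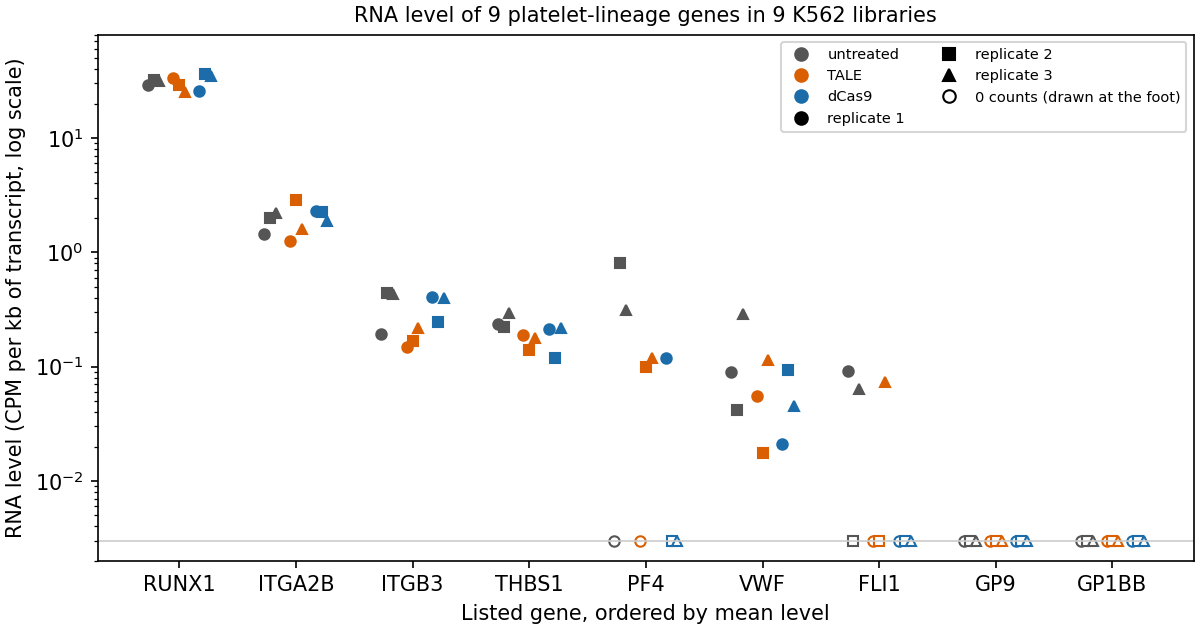
RNA level of each listed gene in every library, in CPM per kilobase of transcript on a log axis, with colour for the group and shape for the replicate. Open symbols at the foot are libraries with 0 counts; RUNX1 lies above all other genes, and GP9 and GP1BB have no count in any library.

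In each of the 3 comparisons edgeR's quasi-likelihood test called 0 of the 4 listed genes that passed the filter. DESeq2 also called 0, although it gave THBS1 no adjusted p in dCas9 against untreated. Unadjusted p from edgeR fell under 0.05 for 1 of 4 (ITGB3) with TALE against untreated, 0 of 4 with dCas9 against untreated and 1 of 4 (ITGB3) with TALE against dCas9. Among all 13786 genes the share called was 0.0218% with TALE against untreated, 0.029% with dCas9 against untreated and 0% with TALE against dCas9. Unadjusted p fell under 0.05 for 7.15%, 5.93% and 6.38% of all genes. So few genes were called anywhere that 0 of 4 does not set the listed genes apart. The comparisons share libraries, and their values are given side by side.

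**Figure D2:**
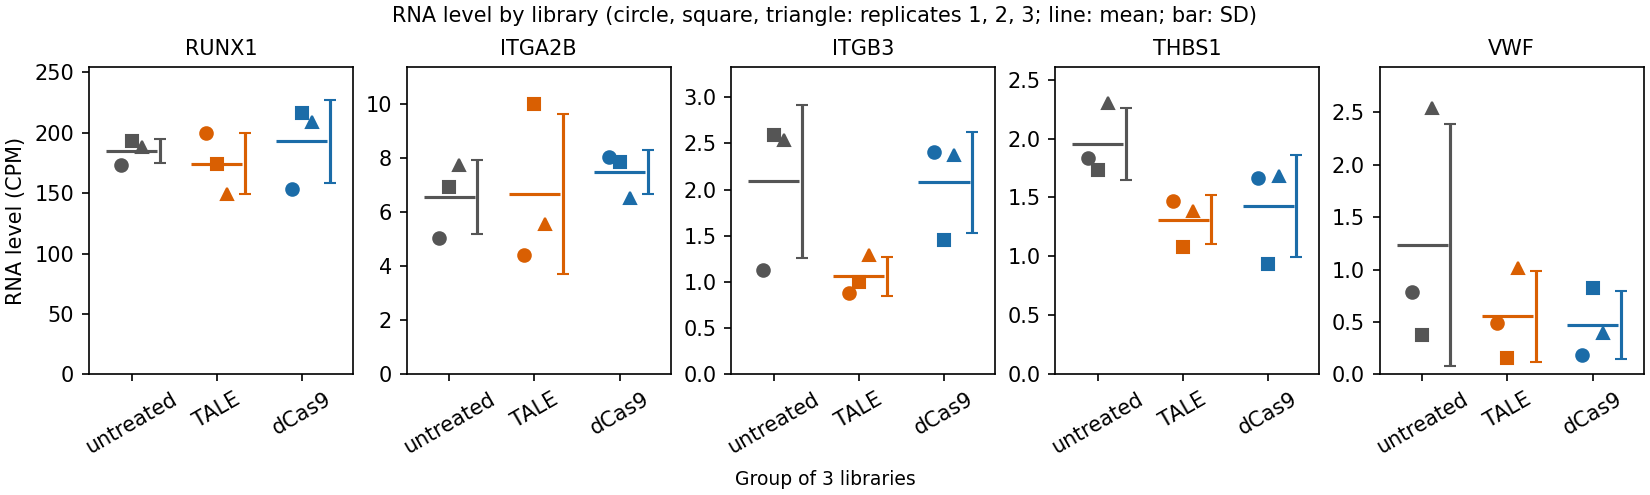
RNA level in CPM of the 4 genes tested and of VWF, by group, with 1 symbol per library, a line at the mean and a bar of 1 SD. TALE libraries of ITGB3 lie below the dCas9 libraries, and untreated libraries of THBS1 lie above both treated groups; the highest VWF value is the untreated 3 library.

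The fibrinogen receptor genes were both detected in all 9 libraries. ITGA2B (ENSG00000005961, chr17:42449548-42467017, GRCh37, - strand), the alpha IIb subunit that marks commitment to the megakaryocyte line, had 58, 56 and 64 counts in untreated libraries 1 to 3. It had 45, 130 and 60 counts in the TALE libraries and 87, 76 and 66 in the dCas9 libraries. Its spread was widest within the TALE group, where library 2 held the highest and library 1 the lowest level of all 9. Mean levels were 6.58 ± 1.37 CPM in untreated, 6.66 ± 2.96 in TALE and 7.49 ± 0.827 in dCas9 libraries (SD, n = 3 each), and the groups overlapped. Against untreated, the log2 fold change was 0.05 ± 0.27 (SE) with TALE and 0.20 ± 0.27 with dCas9, and TALE against dCas9 gave -0.15 ± 0.26, with edgeR adjusted p of 0.987, 0.991 and 0.941. The 95% interval of the ratio to untreated was 0.704 to 1.53 with TALE and 0.781 to 1.70 with dCas9. The TALE value hung on the TALE 2 library, without which it was -0.38.

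ITGB3 (ENSG00000259207, chr17:45331193-45391109, + strand), the beta 3 subunit, showed the widest difference among the genes tested. It had 13, 21 and 21 counts in untreated libraries 1 to 3, 9, 13 and 14 in the TALE libraries and 26, 14 and 24 in the dCas9 libraries. Mean levels were 2.09 ± 0.828 CPM in untreated, 1.06 ± 0.213 in TALE and 2.08 ± 0.546 in dCas9 libraries (SD, n = 3 each). Every TALE library lay below every dCas9 library, a separation that 9.38% of all genes tested showed in either direction, whereas untreated 1, at 1.13 CPM, fell inside the TALE range of 0.882 to 1.30. For TALE against untreated the log2 fold change was -0.93 (95% interval -1.78 to -0.08), with unadjusted p of 0.0337 and edgeR adjusted p of 0.655. For TALE against dCas9 it was -0.97 (-1.80 to -0.14), with unadjusted p of 0.0251 and edgeR adjusted p of 0.745. These differences did not survive correction over all genes, and each rests on 9 to 26 counts per library. For dCas9 against untreated the value was 0.04 (-0.75 to 0.82), with adjusted p of 0.999. In the integrin pair as a whole, ITGA2B thus differed by less than its spread, and the beta subunit pointed lower in TALE cells without passing the test.

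The 2 listed genes of the von Willebrand receptor complex had 0 counts in all 9 libraries. They were GP1BB (ENSG00000203618, chr22:19711062-19712294, + strand), a beta chain of that complex, and GP9 (ENSG00000169704, chr3:128779622-128781249, + strand), the small subunit it needs to reach the surface. With 0 counts in 9 libraries, the upper limit set by 3 counts is 0.0325 CPM over all libraries together, which covers counting error only. GP1BB needs a caution, because 686 of its 1233 bases overlap the septin gene SEPT5 on the same strand, which had 1013 to 1682 counts. SEPT5 itself was at -0.18 (95% interval -0.45 to 0.08, edgeR adjusted p = 0.943) in dCas9 against untreated. All 3 dCas9 libraries lay below the untreated ones, a separation that 11.6% of all genes tested showed in either direction. How the authors' counting treated reads shared by 2 genes was not stated, and its part in this 0 was not tested. The other members of the complex were also near 0, with 4 counts in all for GP1BA, the chain that touches von Willebrand factor, and 10 for GP5. Of those 10 GP5 counts, 6 were in the untreated 3 library.

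Among the granule genes, THBS1 (ENSG00000137801, chr15:39873280-39891667, + strand), which encodes the adhesive glycoprotein thrombospondin 1, was the only one tested. It had 21, 14 and 19 counts in untreated libraries 1 to 3, 15, 14 and 15 in TALE and 18, 9 and 17 in dCas9 libraries. Mean levels were 1.95 ± 0.303 CPM in untreated, 1.31 ± 0.206 in TALE and 1.43 ± 0.430 in dCas9 libraries (SD, n = 3 each). All 3 untreated libraries lay above all 3 TALE and all 3 dCas9 libraries, which gave an exact two-sided permutation p of 0.1 in both cases, the smallest that 3 against 3 allows. Groups separated in this way in 12.5% of all genes with TALE and 11.6% with dCas9, each against untreated, so 1 of 4 listed genes in each is close to what any gene shows. The log2 fold change was -0.58 (95% interval -1.33 to 0.18, edgeR adjusted p = 0.773) for TALE and -0.44 (-1.19 to 0.32, edgeR adjusted p = 0.963) for dCas9. Between TALE and dCas9 it was -0.14 (-0.91 to 0.63). Without the untreated 3 library the lowest untreated level was 1.73 CPM, still above the highest TALE level of 1.47 and the highest dCas9 level of 1.69. The gene lies 5.11 Mb from B2M, the targeted gene, on the same chromosome.

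PF4 (ENSG00000163737, chr4:74846528-74847744, - strand), a chemokine of platelet granules, was barely seen. It had 0, 5 and 2 counts in untreated libraries 1 to 3, 0, 1 and 1 in TALE and 1, 0 and 0 in dCas9 libraries. The 10 counts together amount to 0.108 CPM (exact Poisson 95% interval 0.0519 to 0.199, counting error only). All but 3 of them were in 2 untreated libraries, and the groups overlapped at 0.

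VWF (ENSG00000110799, chr12:6058043-6233936, - strand), the large adhesive protein that tethers platelets, had counts in all 9 libraries but missed the filter. It had 9, 3 and 21 counts in untreated libraries 1 to 3, 5, 2 and 11 in TALE and 2, 8 and 4 in dCas9 libraries. The mean was 1.23 ± 1.15 CPM in untreated libraries and fell to 0.578 CPM over the 2 that remained without untreated 3, beside 0.554 ± 0.436 in TALE and 0.470 ± 0.328 in dCas9 (SD, n = 3). The untreated excess therefore rested on the library with a count in the most genes, whose 2.54 CPM stood against at most 1.02 in the other 8. Tested without a filter, VWF had a log2 fold change of -1.11 for TALE and -1.35 for dCas9 against untreated, with edgeR adjusted p of 0.698 and 0.738. The highest endothelial marker sum, 1.94 CPM, was in the same untreated 3 library, with 6 counts of CDH5, 4 of TEK and 3 each of KDR and EMCN.

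The transcription factors stood at opposite ends. RUNX1 (ENSG00000159216, chr21:36160098-37376965, - strand) had 1987, 1563 and 1555 counts in untreated libraries 1 to 3, 2042, 2254 and 1613 in TALE and 1657, 2090 and 2106 in dCas9 libraries. Mean levels were 185 ± 10.3 CPM in untreated, 174 ± 25.4 in TALE and 193 ± 34.3 in dCas9 libraries (SD, n = 3 each), and the 3 groups overlapped. The log2 fold change was -0.08 (95% interval -0.38 to 0.22, edgeR adjusted p = 0.929) with TALE against untreated and 0.06 (-0.24 to 0.36, edgeR adjusted p = 0.994) for dCas9 against untreated. Between TALE and dCas9 it was -0.15 (-0.44 to 0.15, edgeR adjusted p = 0.886). The 95% interval of the ratio to untreated was 0.766 to 1.16 with TALE and 0.848 to 1.28 with dCas9, the narrowest of the 4 genes tested. The SD of its log2 level across the 9 libraries was 0.187, where the median over all genes tested was 0.207. The median level of those genes was 19.5 CPM, so the 2 SDs are not matched for abundance.

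FLI1 (ENSG00000151702, chr11:128556430-128683162, + strand) had 9 counts in all. They were 4, 0 and 2 in untreated libraries 1 to 3 and 0, 0 and 3 in TALE, and all dCas9 libraries had 0. Together they amount to 0.0975 CPM (exact Poisson 95% interval 0.0446 to 0.185). The groups overlapped, since every group had a library at 0. The RUNX1 partner CBFB, by contrast, was present at 41.5 to 57.0 CPM.

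**Figure D3:**
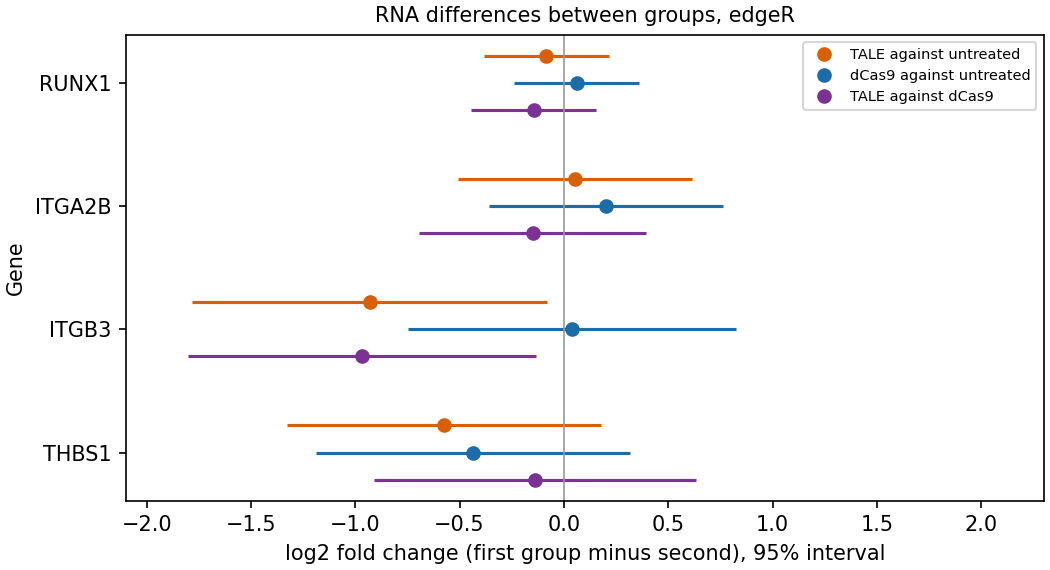
Log2 fold change and 95% interval from edgeR for the 4 genes tested, with 1 colour per comparison. Only the ITGB3 intervals for TALE against untreated and TALE against dCas9 leave out 0, and both had adjusted p above 0.6.

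The wider set of megakaryocyte and platelet genes had 64 symbols, of which 62 were in the table and 44 passed the filter. edgeR called 0 of 44 in each comparison. Unadjusted p fell under 0.05 for 2 higher and 3 lower genes with TALE against untreated (11.4% of the list against 7.15% of all genes), 2 higher and 1 lower with dCas9 (6.82% against 5.93%), and 2 lower with TALE against dCas9 (4.55% against 6.38%). The median log2 fold change was -0.01, 0.02 and -0.07 in that order, where that of all genes was 0.002, -0.003 and 0.002. The smallest adjusted p in the list was 0.530. Erythroid and megakaryocytic regulators were well expressed: GATA1, the factor shared by both lineages, stood at 82.0 to 109 CPM, NFE2 (a driver of platelet release) at 186 to 269 and GFI1B at 62.0 to 92.4. TUBB1, the platelet beta tubulin, stood at 23.5 to 40.5 CPM. For NFE2 the 3 dCas9 libraries lay above the 3 untreated ones, with a log2 fold change of 0.21 (95% interval -0.07 to 0.50, edgeR adjusted p = 0.919). Of all genes tested, 11.6% showed such a separation in either direction. Over GATA1, NFE2, GFI1B, TUBB1 and CBFB, log2 fold changes in the 3 comparisons ran from -0.23 to 0.27, both for TUBB1 (TALE against dCas9 and dCas9 against untreated). FYB, an adapter protein gene named after its values were seen, was lower in TALE than in dCas9 libraries by -0.55 (95% interval -0.96 to -0.14, unadjusted p = 0.0118), with overlapping groups and an edgeR adjusted p of 0.695. Other platelet receptor genes of the list, named after their values were seen, were detected too, with mean levels of 18.3 CPM for the collagen receptor GP6, 19.1 for the ADP receptor P2RY1, 44.1 for the thrombin receptor F2R and 9.08 for CD36. Of the 62 genes, 44 passed the filter, against 13786 of the 55766 rows of the RNA count table. The list also holds genes that other lineages share, such as GATA1, so passing the filter does not measure lineage. GP1BA and GP5 of this list, and GP1BB, GP9 and PF4 of the 9 listed genes, were at or near 0.

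Across the 9 libraries no pair of the 4 genes tested passed a test of correlation. Of 6 pairs, the highest r was that of ITGB3 with THBS1 (Pearson r = 0.557, permutation p = 0.129; Spearman rho = 0.5, permutation p = 0.178), with a Benjamini-Hochberg adjusted p of 0.771 for r. Without the 2 libraries farthest from the median, r was 0.335. For the integrin pair ITGA2B and ITGB3, r was 0.355 (permutation p = 0.340; rho = 0.333, permutation p = 0.385), and 0.668 without 2 libraries, so both values rest on few libraries. The gene with the most similar profile, among 13738 searched by Pearson r of log2 level over 9 libraries, was DYRK3 for ITGA2B (r = 0.936), RN7SL3 for ITGB3 (r = 0.959), RP11-890B15.3 for RUNX1 (r = 0.990) and WDR5B for THBS1 (r = 0.945). These are the highest of many values over few libraries that share depth and preparation, and they are given as a description.

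The MeDIP count table, which covers 198884 regions, had 141 regions at the listed genes, counted from 2000 bases before the gene to 2000 bases past it. RUNX1 had 122 of them, since the annotated gene with its flanks spans 1221 kb, and 62 lay in the span of its MANE Select transcript. ITGB3 had 8 regions, ITGA2B 5, VWF 2, GP1BB, PF4, FLI1 and THBS1 1 each, and GP9 none. Per 100 kb of MANE span, RUNX1 had 23.4 regions, ITGA2B 23.3, PF4 19.2, GP1BB 19.1, ITGB3 12.5, THBS1 4.47, VWF 1.11 and FLI1 0.812. The median of 20176 protein-coding genes was 15.5 (quartiles 1.47 and 24.9), taken over the whole annotated gene with its flanks. On that measure RUNX1 had 9.99 regions per 100 kb, below the median, and FLI1 had 0.765, while the other listed genes kept their values. Since a region enters the table only where a peak was called, GP9 at 0 says only that no counted region lay there; its span still held a peak in the lists of 5 of 9 samples. Total counts in the regions ran from 2529729 to 4492751 per library.

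Of the 141 regions, 71 passed the filter, and edgeR called 0 in each comparison. Unadjusted p fell under 0.05 for 4, 2 and 3 of them with TALE against untreated, dCas9 against untreated and TALE against dCas9. Among all 105652 regions tested the share called was 0%, 0.000947% and 0.000947%, so 0 of 71 was the background. Groups did not overlap in 7, 5 and 4 of the 71 regions (9.86%, 7.04% and 5.63%), against 10.2%, 10.3% and 9.97% of all regions. The median log2 fold change over the 71 was -0.03, 0.08 and -0.11.

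**Figure D4:**
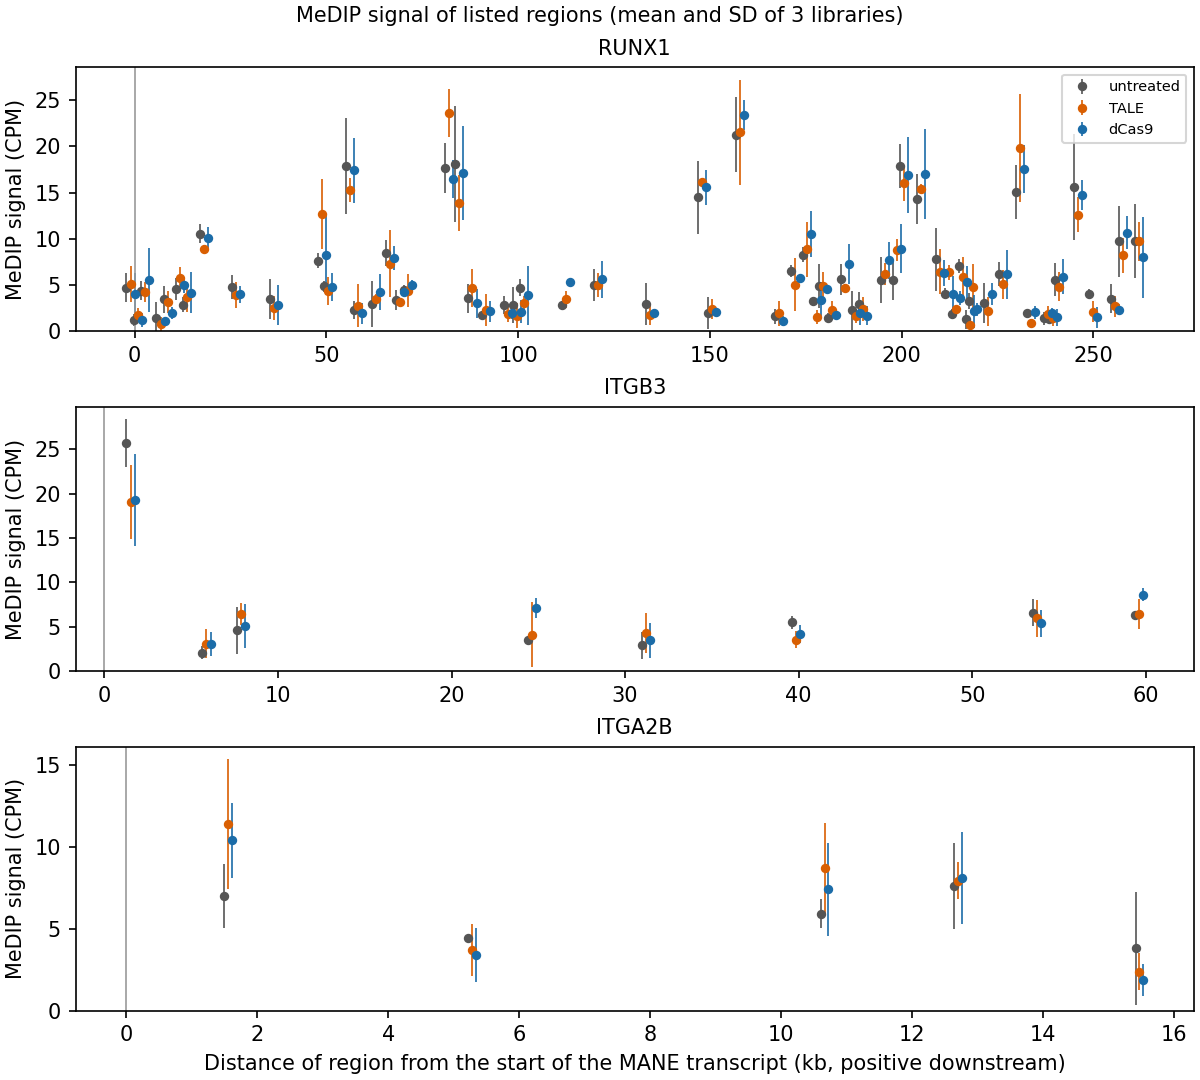
MeDIP signal (CPM, mean and SD of 3 libraries per group) of the regions in the MANE span of RUNX1, ITGB3 and ITGA2B, against the distance from the transcript start in kb, with groups drawn slightly apart. In ITGB3 the region nearest the start, also the widest there, has the most signal, and in RUNX1 the TALE point lies above both other groups near 82 kb.

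At ITGB3 the region with the most MeDIP signal lay just inside the gene. Signal was not corrected for width, and this region spans 652 bases, against 197 to 274 for the others. The region in intron 1 nearest the start had 75, 67 and 82 counts in untreated libraries 1 to 3. It had 50, 49 and 54 counts in TALE and 50, 93 and 32 in dCas9 libraries. Mean levels were 25.7 ± 2.70 CPM in untreated, 19.1 ± 4.13 in TALE and 19.2 ± 5.19 in dCas9 libraries (SD, n = 3 each), and the groups overlapped. TALE against untreated differed by -0.45 on the log2 scale (95% interval -0.88 to -0.03, unadjusted p = 0.0377), which did not pass, with an edgeR adjusted p of 1.00. The first 500 bases on both sides of the ITGB3 start, which are CpG-rich at 107 sites, had no counted region. A second ITGB3 region, chr17:45355709-45355982 in intron 2, named after its values were seen, had 15, 28 and 19 counts in dCas9, 12, 7 and 12 in untreated and 0, 14 and 25 in TALE libraries. Its dCas9 libraries were all above the untreated ones, by 1.02 on the log2 scale (95% interval 0.12 to 1.91, unadjusted p = 0.026, edgeR adjusted p = 1.00). Groups separated in this way in 10.3% of all regions tested, in either direction.

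At ITGA2B, whose start has 10 CpG sites in 1001 bases, the region with the most counts lay in intron 1 (chr17:42465002-42465928). Counts were not corrected for width, and this region spans 927 bases, against 274 to 516 for the others. It had 29, 17 and 16 counts in untreated libraries 1 to 3, 34, 20 and 39 in TALE and 30, 30 and 27 in dCas9 libraries. The signal pointed higher in TALE than in untreated libraries, by 0.68 (95% interval 0.04 to 1.31, unadjusted p = 0.037), with overlapping groups and an edgeR adjusted p of 1.00. Summed over the 5 regions, it was 28.9 ± 4.39 CPM in untreated, 34.2 ± 5.20 in TALE and 31.3 ± 5.98 in dCas9 libraries (SD, n = 3). The RNA of the gene, at 0.05 on the log2 scale, did not differ between these groups beyond its spread.

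Over RUNX1, 57 of the 62 regions in the MANE span were intronic, and the mean level per region had a median of 4.42 CPM and ran from 1.12 to 22.1. In all, 9 of the 62 exceeded 10 CPM. Levels per region were not corrected for width. The highest region and the next were 655 and 718 bases wide, against a median of 285 over all regions of the listed genes. The highest, chr21:36263375-36264029 in intron 3, had 561 counts and lay 2379 bases from the RefSeq start of the CpG-rich promoter printed above. The next, also named after its values were seen, was chr21:36339174-36339891 in intron 2, with 500 counts. It had 67, 36 and 55 counts in untreated, 57, 54 and 85 in TALE and 43, 70 and 33 in dCas9 libraries, and its TALE libraries lay above both other groups once scaled by depth, by 0.40 against untreated (unadjusted p = 0.0639) and 0.50 against dCas9 (unadjusted p = 0.0238), with edgeR adjusted p of 1.00 in both. Of the 59 regions tested over the whole gene, 6, 3 and 4 had groups that did not overlap in TALE against untreated, dCas9 against untreated and TALE against dCas9. Over all regions tested the share was 10.2%, 10.3% and 9.97% in that order, so these counts do not set RUNX1 apart. At the MANE start, a different and CpG-poor start with 17 sites in 1001 bases, the regions chr21:36420751-36420912 and chr21:36422505-36422865 had 39 and 122 counts over 9 libraries. At the start of the longest annotated form, chr21:37375924-37376241 and chr21:37377586-37377820 had 22 and 77 counts, and the groups overlapped at all 4 regions. Summed over the 62 regions, the signal was 377 ± 6.92 CPM in untreated, 373 ± 29.9 in TALE and 384 ± 7.71 in dCas9 libraries (SD, n = 3), so their sum did not differ between groups beyond their spread.

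**Figure D5:**
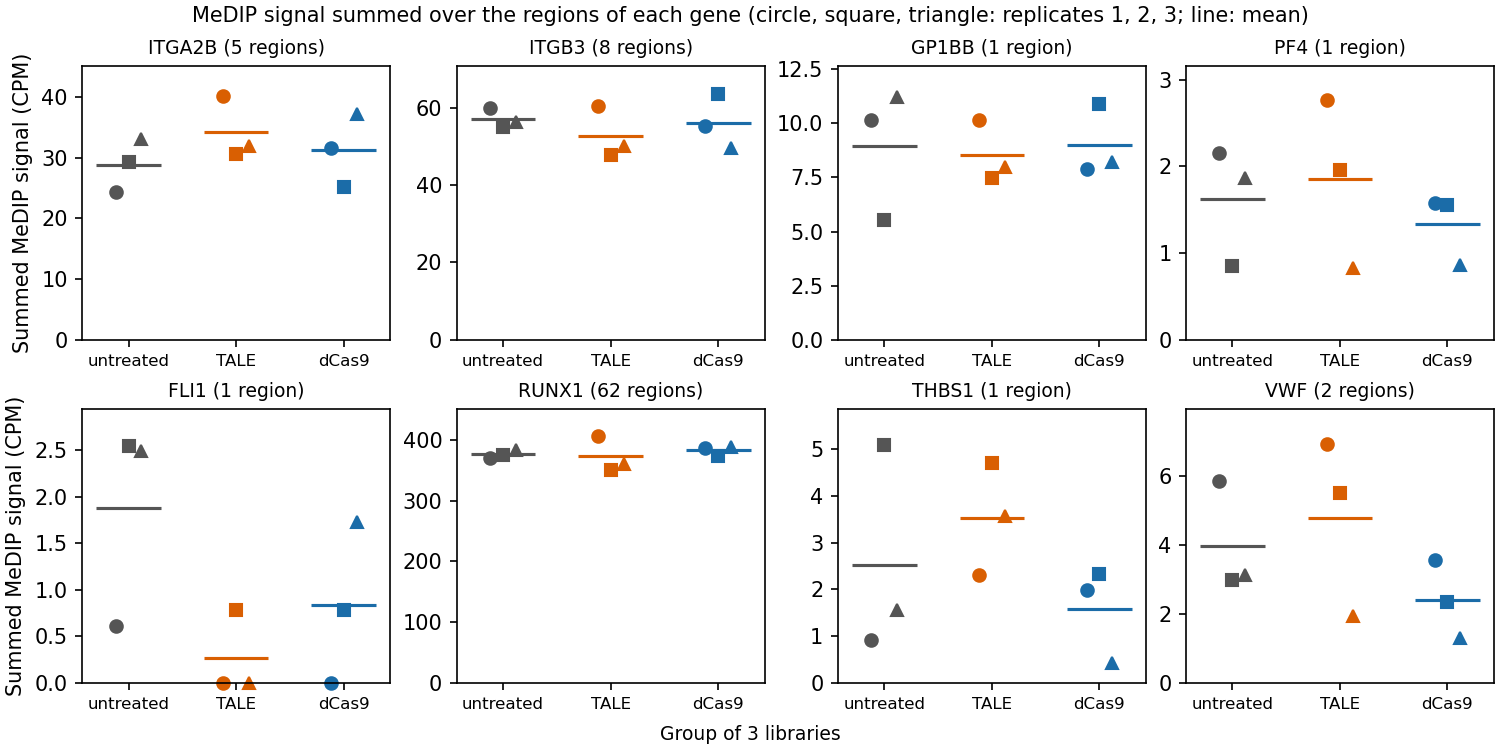
MeDIP signal in CPM summed over the listed regions of each gene (MANE span), with 1 symbol per library and a line at the group mean, drawn on axes that start at 0. Groups overlap for ITGA2B, ITGB3 and RUNX1, and the genes with 1 or 2 regions have under 12 CPM.

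Of the genes with 1 or 2 counted regions, GP1BB had the most signal. The single THBS1 region, printed above, had 65 counts over 9 libraries, at 2.52 ± 2.25 CPM in untreated, 3.53 ± 1.20 in TALE and 1.58 ± 1.01 in dCas9 libraries (SD, n = 3). GP1BB had 1 region of 287 bases at its second exon, with 233 counts against a median of 89 over all regions, at 8.96 ± 3.03, 8.53 ± 1.44 and 9.00 ± 1.65 CPM in untreated, TALE and dCas9 libraries. FLI1 had 25 counts in 1 intronic region and VWF 93 counts in 2 intronic regions, while PF4 had 41 counts in 1 upstream region. The starts of these genes and of GP9 varied in sequence, with 100 CpG sites in 1001 bases at GP1BB, 78 at FLI1, 76 at THBS1, 26 at PF4, 18 at GP9 and 6 at VWF. CpG-rich starts thus occurred both in genes at or near 0 counts (GP1BB, FLI1) and in detected ones (ITGB3, THBS1).

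The authors called peaks in each sample separately. A peak lay within 2000 bases of the annotated start of ITGB3 in 9 of 9 samples, of ITGA2B in 8, GP1BB in 6, RUNX1 and THBS1 in 5 each and PF4 in 3, and of GP9, FLI1 and VWF in 0. For THBS1 all 3 TALE samples had such a peak, against 1 untreated and 1 dCas9 sample, a difference that has no test. The −log10 q of these peaks was 2.09, 0.836 and 0.735 in TALE samples 1 to 3, 1.42 in untreated 2 and 3.03 in dCas9 2. The highest was thus in a dCas9 sample, and 2 of the TALE peaks were the lowest. At a −log10 q of at least 5, as the authors' lists give it, peaks remained at 3 starts: GP1BB in 4 samples, RUNX1 in 3 and ITGA2B in 1. For RUNX1 this is the start of the longest annotated form. At its MANE start a peak lay in 4 samples, and in 1 at that threshold. Peaks at the RUNX1 promoter printed above were not counted. The GP1BB window runs past the end of this gene of 1233 bases. At least 50% of a GP1BB peak lay inside the window in 2 of the 6 samples. These peaks therefore need not lie in a promoter. The 6 genes with a peak near the annotated start at any q also had a counted region of the MeDIP table within 2000 bases of the start, which 43.7% of protein-coding genes had.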

How the data were processed

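RNA-seq and MeDIP-seq counts of 9 libraries each were read from the deposited tables. RNA values in the deposited table are raw counts by gene symbol, aligned with STAR 2.3.0 to hg19 per the submitters' processing notes. MeDIP values, as deposited, are raw counts by region, for which the notes name BWA 0.7.5, Picard, MACS2 and bedtools. The counting rule, its use of strand and the annotation are not given in the sources used here. The authors' peak lists give a −log10 q-value, a fold enrichment and a score for each peak of each sample. Per the labels, MeDIP libraries were pooled before capture.

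All 9 libraries of an assay were fitted together with edgeR 4.0.16 (R 4.3.3) by the quasi-likelihood test on group means, with TMM factors, filterByExpr at a minimum of 10 counts and Benjamini-Hochberg adjustment over all features, called at 0.05. CPM used TMM-scaled sizes. Single genes were compared by exact permutation of log2(CPM + 0.5). Log2 fold changes are edgeR's. The fit was tested on simulated data. Positions came from GENCODE on GRCh37. Promoters came from RefSeq (GRCh38.p14).

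The members, the wider list and the tests were chosen with earlier results of these data known. Always named were the 9 listed genes, B2M and a fixed set of partners, and of the wider list only counts and called genes. Some items are not reported here. DESeq2 1.42.0 was an alternative, as were other scalings and filters, a replicate block and the fit without each library. Depth limits low genes: 3 counts amount to 0.231 to 0.371 CPM per RNA library.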

Additional observations from a re-analysis of the deposited data

How the results depend on the processing

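Among the listed genes and regions that each alternative could test, 0 were called, in all 3 comparisons: DESeq2 size factors, no filter, a replicate block and the fit without each library, and for RNA also the DESeq2 test and at least 10 counts in every library. That last filter removed ITGB3 and THBS1, and DESeq2 gave THBS1 no adjusted p in dCas9 against untreated. The smallest adjusted p of a listed gene under any of them was 0.302. Directions of values near 0 were not stable. For ITGA2B with TALE against untreated, log2 fold changes ran from -0.38 (without TALE replicate 2) to 0.27 when libraries were left out, and without untreated replicate 1 the value was -0.12. For RUNX1 they ran from -0.19 to 0.017 (without TALE replicate 3) with TALE against untreated and from -0.030 (without dCas9 replicate 2) to 0.20 with dCas9. For ITGB3 with dCas9 against untreated they ran from -0.30 (without untreated replicate 1) to 0.23, and for ITGA2B with TALE against dCas9 from -0.58 to 0.070 (without TALE replicate 1). With ITGB3 in TALE against untreated the range was -1.27 to -0.74, and in TALE against dCas9 -1.17 to -0.85. For THBS1 it was -0.66 to -0.44 with TALE and -0.57 to -0.22 with dCas9 against untreated. The cause was not tested.

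With the replicate number as a block, ITGA2B with TALE against untreated was -0.0025, and 0 listed genes and 0 regions were called. No pairing by number was seen: the deviations of same-numbered libraries correlated at -0.284 to 0.103 in RNA and -0.0047 to 0.0040 in MeDIP. Those of differently numbered libraries correlated at -0.136 to 0.249 in RNA and -0.0081 to 0.0087 in MeDIP. These values cannot show how the replicates were made. Calls among all genes, 3, 4 and 0 in the order of the comparisons, became 74, 89 and 77 without a filter and 1, 2 and 0 with 10 counts in every library. They were 3, 13 and 0 with DESeq2 and 3, 2 and 0 with the block. Without TALE replicate 3 they were 16, 10 and 0, and without dCas9 replicate 1 they were 3, 8 and 21. Genes with a peak at the start were 6, and 3 at a −log10 q of at least 5; they were 6 with 50% of the peak inside and 6 at the MANE start, an alternative chosen after seeing the data, as was leaving untreated 3 out for VWF, PF4 and FLI1. Without untreated 3 the untreated mean was 0.309 CPM for PF4 and 0.175 for FLI1.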
